A study of Homo sapiens with 10 samples.

Results

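The regions described here are the 570 stretches of chromatin that carried an H3K27ac peak in both TWEAK-treated libraries of MDA-MB-453 cells and in neither untreated library. They were found by joining the overlapping peaks of the 4 MDA-MB-453 lists on chromosomes 1 to 22 and X, which gave 42831 regions, so that the gained regions made up 1.33% of them. MDA-MB-453 and SKBR3 are established HER2 breast cancer cell lines. In each line 2 libraries came from untreated cells and 2 from cells given TWEAK at 10 ng/ml for 48 h, with fresh TWEAK at 24 h, after 8 h of starvation. The study's methods call the ChIP-seq replicates of cell lines biological, the labels do not describe the cultures, and no gene edit is named for either line.

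H3K27ac is the acetyl mark that active promoters and enhancers carry on histone H3, and a peak is a stretch where antibody-bound DNA exceeds the input. TWEAK is a ligand of the TNF family whose receptor, Fn14, binds TRAF adaptor proteins such as TRAF2 and signals to NF-κB and to kinases upstream of AP-1. NF-κB dimers bind short palindrome-like sites and recruit the acetyltransferases that lay down this mark at inducible enhancers.

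The labelled cell type was checked by its markers. All 10 luminal HER2 markers, among them ERBB2, FOXA1 and GATA3, had a peak at a protein-coding transcription start site (TSS) in all 4 MDA-MB-453 lists. Of 14 markers of other cells, 12 had none in any list, and COL1A1 and TP63 had one in all 4. The 4 MDA-MB-453 lists were of similar length, between 36148 and 37813 peaks, while the SKBR3 lists held between 43684 and 51687, the longest being TWEAK replicate 2. Read depth is unknown, so absence from a list does not mean absence of signal, which may have fallen short of the caller's limit.

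Sequences of 7 gained regions are shown because they carry a match to the 10-base NF-κB consensus and because the results below turn on them. Each is 90 bases of the plus strand of hg38, 5′ to 3′, and the capitals mark the bases of the match, on whichever strand it lies. TRAF2, ITGAM and ODC1 name regions among the 10 highest ranked, PSMB9 and ARRDC4 regions with 2 or more separate matches in the 1000 bp searched, and IL6ST and C13orf42 regions that were also gained in SKBR3. The last pair was chosen after the values were seen. In order, they lie at chr9:136902544-136902633, chr16:31269630-31269719, chr2:10493787-10493876, chr6:32861314-32861403, chr15:97998850-97998939, chr5:56030049-56030138 and chr13:51066439-51066528.
TRAF2: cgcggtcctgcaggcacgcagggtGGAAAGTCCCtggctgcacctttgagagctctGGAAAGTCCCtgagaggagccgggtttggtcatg
ITGAM: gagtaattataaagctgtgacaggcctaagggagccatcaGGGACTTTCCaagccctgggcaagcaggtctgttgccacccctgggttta
ODC1: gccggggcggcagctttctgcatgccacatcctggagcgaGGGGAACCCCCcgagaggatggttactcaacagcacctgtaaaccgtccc
PSMB9: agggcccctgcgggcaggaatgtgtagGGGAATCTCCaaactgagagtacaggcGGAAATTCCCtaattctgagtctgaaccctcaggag
ARRDC4: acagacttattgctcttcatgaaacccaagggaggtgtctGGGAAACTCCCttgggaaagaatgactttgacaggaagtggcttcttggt
IL6ST: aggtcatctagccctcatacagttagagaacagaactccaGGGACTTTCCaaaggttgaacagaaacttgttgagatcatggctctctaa
C13orf42: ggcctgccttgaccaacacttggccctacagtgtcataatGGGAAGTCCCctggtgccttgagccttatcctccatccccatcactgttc
The stretch from the TRAF2 region holds the match in minus-strand orientation at 2 places, both spelled GGGACTTTCC when read on that strand. The stretches from ITGAM and IL6ST hold the same letters on the plus strand. ODC1 and ARRDC4 each show 11 capitals because a match on each strand overlaps there, offset by a single base.

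The gained regions were short and weak. Their median width was 688 bp (range 226 to 2295), against 1947 bp for the 31162 regions present in all 4 lists. Median fold enrichment over background, as the authors' peak caller gave it, was 2.86 in TWEAK replicate 1 and 2.98 in TWEAK replicate 2, against 5.72 and 5.64 for regions in all 4 lists. These heights belong to the lists that chose the regions and are a description only. Ranked by −log10 q within its own list, the peak of a gained region stood at a median mean percentile of 10.9, and the highest reached 50.9. For regions in all 4 lists the median was 57.4. The TWEAK replicate 1 percentile was the higher of the 2 in 281 gained regions and the replicate 2 percentile in 289.

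**Figure D1:**
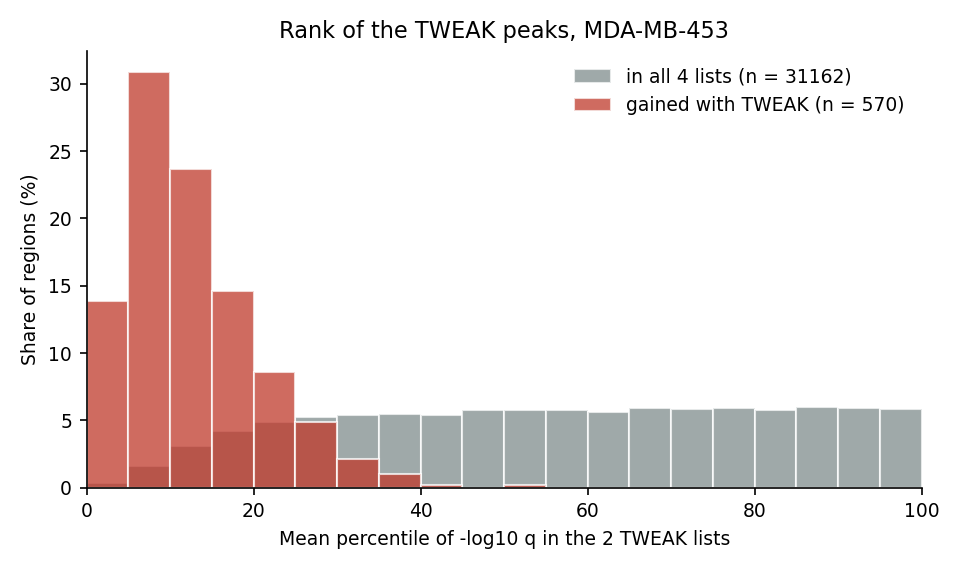
The horizontal axis is the mean percentile of −log10 q in the 2 TWEAK lists of MDA-MB-453, and the bars give the share of regions in bins of 5 percentile points, for regions gained with TWEAK and for regions in all 4 lists. The gained regions crowd at the low end, with a median of 10.9, while regions in all 4 lists spread over the whole range.

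Values on either side of the rule's limits were close. The lowest −log10 q among the gained regions was 1.03 in TWEAK replicate 1 and 1.04 in replicate 2, next to 1.01 as the lowest in these lists, and 189 gained regions had both peaks at a −log10 q under 2. Another 1560 regions were in both TWEAK lists and in 1 untreated list, 605 with untreated replicate 1 and 955 with untreated replicate 2. Their median width was 890 bp and their median mean percentile 14.3. The nearest untreated peak to a gained region was 40 bp away at the closest and 11.6 kb away at the median. Lost regions, present in both untreated lists and neither TWEAK list, numbered 558, with a median width of 783 bp. When only peaks with q under 1e-05 were kept in every list, 291 regions had the gained pattern, of which 278 overlapped a region that all 4 full lists held and only 3 overlapped a gained region. Leaving out 1 library drops 1 of the 4 conditions, and the number then ran from 1173, when untreated replicate 1 was dropped, to 2198, when TWEAK replicate 2 was.

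Where the gained regions lay in the genome played no part in choosing them. Of the 570, 99 (17.4%, 95% Wilson interval 14.5 to 20.7) lay within 1 kb of any annotated TSS, against 14.0% of lost regions and 35.9% of all regions. At a TSS of a protein-coding transcript were 61 (10.7%), against 4.30% of lost and 26.5% of all regions. The midpoint was in a protein-coding gene in 311 (54.6%), in an intron in 276, in a UTR in 24 and in a coding exon in 11, while 180 (31.6%) were intergenic. Over all regions the intergenic share was 26.8%. The intervals cover counting error only, and regions taken from 1 set of libraries depend on each other.
The regions were spread over many genes. The nearest protein-coding TSS belonged to 532 different genes, of which 36 were nearest to 2 gained regions and 1, FLRT2, to 3. FLRT2 encodes a cell-surface guidance and adhesion protein, and its 3 regions lay between 299 and 1715 kb from its TSS. By position, 150 gained regions (26.3%) lay within 5 kb of a region that all 4 lists held, and 135 lay more than 50 kb from any.

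The region in TRAF2 was the second highest ranked. TRAF2 is the adaptor that links TNF-family receptors, Fn14 among them, to NF-κB and JNK signalling. The region, chr9:136901343-136903448, lay in an intron 11.8 kb from the nearest TSS of a protein-coding transcript, and it overlapped the annotated TSS of another transcript. Its fold enrichment was 3.93 in TWEAK replicate 1 and 4.51 in TWEAK replicate 2, at percentiles 39.6 and 47.1, and neither untreated list had a peak there. In SKBR3 the same place was already marked without TWEAK. SKBR3 fold enrichment was 18.5 and 21.8 in untreated cells and 24.5 and 26.0 after TWEAK, and the percentiles were 98.7, 98.4, 98.8 and 99.4. Each value is that of a peak much wider than the region. The peak in TWEAK replicate 1 also ran over the nearest protein-coding TSS, where TWEAK replicate 2 had a separate peak of 26.2 close by, so that 24.5 cannot be assigned to the region itself. TRAF2 was also 1 of the 3 gained regions that kept the pattern when only peaks with q under 1e-05 were used.

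ITGAM, the gene of the integrin chain CD11b known from myeloid cells, held the third. The region, chr16:31268570-31270100, was intronic and 5.49 kb from a protein-coding TSS, with fold enrichment 3.83 and 4.68 in the TWEAK lists. In SKBR3, untreated replicate 1 had no peak there, untreated replicate 2 had one of fold enrichment 4.62, and the TWEAK replicates had 14.9 and 21.6. Both SKBR3 TWEAK values therefore stood above the untreated one. The TWEAK peaks were wider than the region, and both also covered a place where each untreated list had a separate peak, of 2.97 and 2.69. The values 14.9 and 21.6 can therefore not be assigned to the region itself. FAM178B, ranked next (chr2:96886183-96886973, intronic), had fold enrichment 4.35 and 4.38 in MDA-MB-453. Its SKBR3 values were 11.1 and 15.2 untreated and 16.3 and 16.6 with TWEAK.

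Other high-ranked regions differed in whether SKBR3 held them. The region nearest ODC1, the rate-limiting enzyme of polyamine synthesis, was intergenic (chr2:10493014-10494334, 44.7 kb from the TSS), with fold enrichment 4.12 and 3.66. SKBR3 had 6.10 and 5.49 there untreated and 10.5 and 10.7 with TWEAK, so the groups did not overlap. A second gained region near ODC1 at chr2:10490627-10491337 lay in the same SKBR3 peak after TWEAK. The intronic region in RIC1 (chr9:5684035-5684300), a subunit of an exchange factor for the GTPase Rab6, had fold enrichment of only 2.71 and 2.54. Its mean percentile was 33.9 by −log10 q but 3.08 by fold enrichment. In SKBR3 it had 3.24 and 2.81 untreated and 3.11 and 2.58 with TWEAK, which overlapped between the groups. Regions in introns of BRWD1 (nearest TSS that of PSMG1), DENND1B and NTPCR had fold enrichment between 3 and 4.41 in MDA-MB-453 and no SKBR3 peak. A region 180 kb from VAPA had a peak in 1 SKBR3 list, TWEAK replicate 2.

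Promoters formed a smaller group. Of the 10 highest ranked at a protein-coding TSS, 9 were those of ZNF585A, FOXP2, SCML2, ZNF516, FOXD3, S100A8, RSAD2, SLC5A11 and PGC. Their fold enrichment lay between 2.89 and 4.27 in the TWEAK lists. FOXP2, FOXD3, ZNF516 and ZNF585A encode transcription factors, RSAD2 an interferon-induced antiviral enzyme, and S100A8 a calcium-binding protein of inflammation. Of these 9, S100A8 and SLC5A11 were held by all 4 SKBR3 lists and the other 7 were not. At S100A8, fold enrichment was 3.07 and 3.74 in MDA-MB-453 with TWEAK, and in SKBR3 it was 8.19 and 7.06 untreated and 14.6 and 13.7 with TWEAK. At SLC5A11 the SKBR3 fold enrichments of the 2 groups overlapped.

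Genes of the pathway and of related lists were few among the gained regions. Of 51 NF-κB target genes, TRAF2 and SDC4 were the host or the nearest gene of 3 gained regions (0.526%, against 0.538% of lost and 0.313% of all regions). The 2 regions in introns of SDC4, a cell-surface proteoglycan, had fold enrichment between 2.78 and 3.02. Of 32 TWEAK and TNF receptor signalling genes, TRAF2, MAP3K7 and TAB2 accounted for 3 regions (0.526%, against 0.191% of all). MAP3K7 is the kinase TAK1 and TAB2 its binding partner. Their regions were distant, 1117 kb and 87.4 kb from the TSS, and weak, with fold enrichment of 2.65 to 2.95. None of the 22 AP-1, JNK and small MAF genes was the host or the nearest gene of a gained region, against 0.179% of lost regions (MAPK8) and 0.187% of all. The same held for the 12 NAD synthesis genes, against 0.179% of lost regions (NAMPT) and 0.0794% of all. With shares this small in every set, the absence is not read as a result about the gained regions.

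Integrin genes accounted for 3 regions, ITGAM, ITGB6 and ITGB8 (0.526%, against 0.358% of lost and 0.189% of all). ITGB6 and ITGB8 encode the β chains of integrins that activate TGF-β. The ITGB8 region (chr7:20329775-20330611) lay 0.091 kb from the TSS. Its fold enrichment was 3.38 and 2.82 with TWEAK in MDA-MB-453. In SKBR3 it was 2.66 and 2.65 untreated and 7.42 and 7.36 with TWEAK, at percentiles 23.5, 12.7, 83.6 and 86.4. The ITGB6 region (chr2:160109867-160110583, intronic) had SKBR3 values of 3.40 and 3.18 untreated and 4.20 and 4.79 with TWEAK. At both, the TWEAK replicates of SKBR3 stood above the untreated ones. Of 28 luminal and apocrine breast genes, some were the host or the nearest gene of 6 regions (1.05%, against 0.538% of lost and 0.598% of all), AGR2, PIP and TRPS1 among them. With so few regions per list, these shares rest on single regions.

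**Figure D2:**
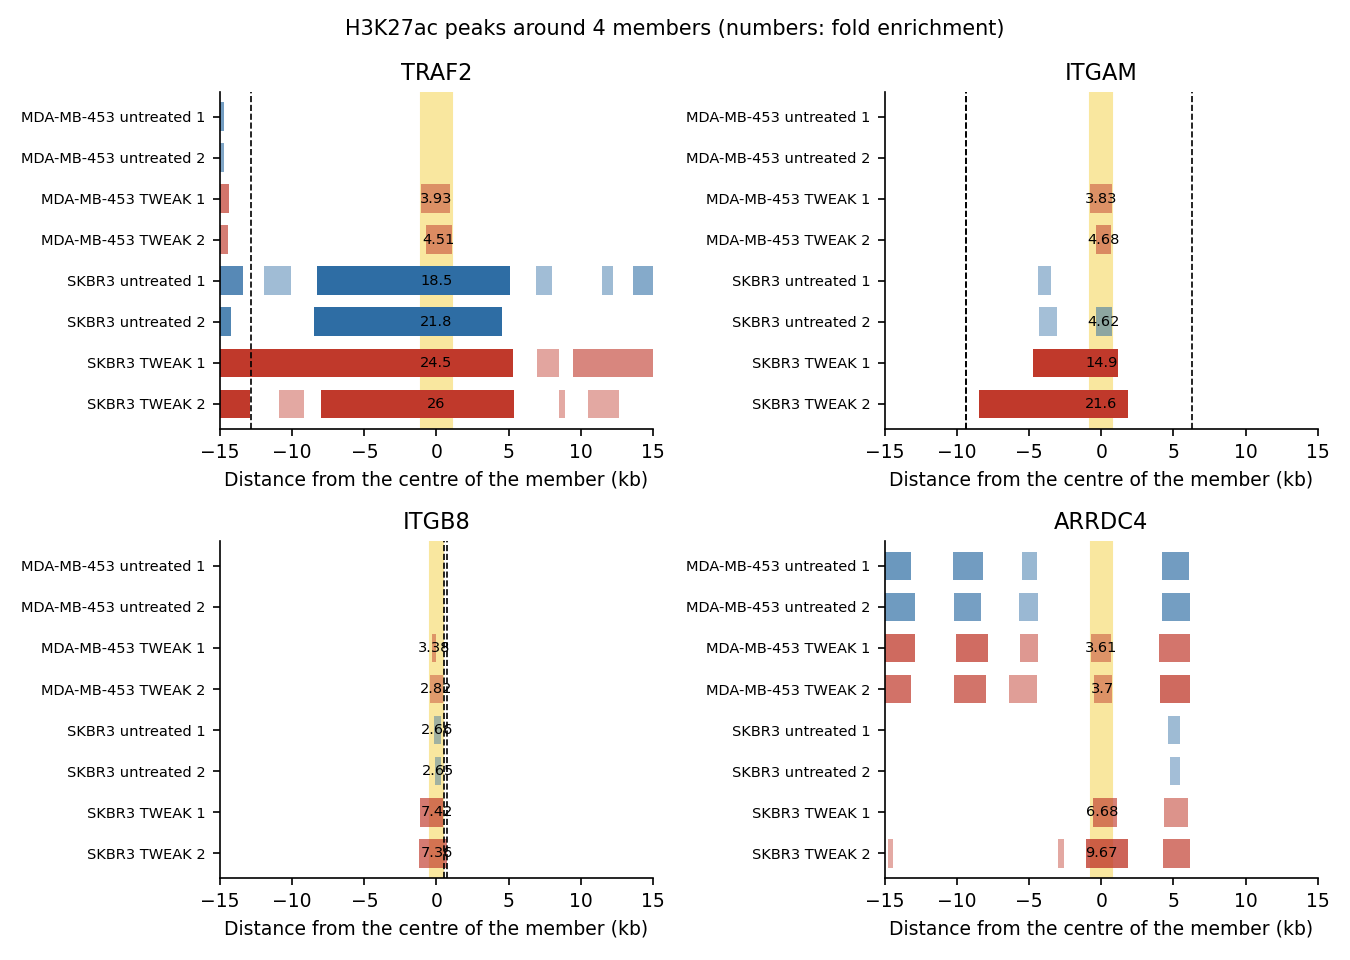
Each panel shows 30 kb around the centre of a gained region (shaded), with distance in kb on the horizontal axis and 1 row for each of the 8 libraries. Bars are peaks (blue untreated, red TWEAK, darker with higher fold enrichment), printed numbers are the fold enrichment of the peak over the gained region, and dashed lines are TSS of protein-coding transcripts of the named gene. MDA-MB-453 has a peak over the shaded area in its 2 TWEAK rows only, while SKBR3 has one in all 4 rows at TRAF2 and ITGB8, in 3 at ITGAM and in 2 at ARRDC4.

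NF-κB motif matches were counted in the 1000 bp around each midpoint, a window of the same length for every region, and the sequence was not used to choose the regions. At least 1 match was found in 111 gained regions (19.5%, Wilson interval 16.4 to 22.9). The share was 8.24% in lost regions (6.24 to 10.8), 13.5% in regions of all 4 lists and 12.7% over all regions. Away from promoters it was 18.7% (88 of 471 gained regions), against 7.08% of distal lost regions and 9.37% of all distal regions. Within 1 kb of a TSS it was 23.2% (23 of 99), against 18.6% of all such regions. Gained and lost regions had a similar median GC content, 43.1% and 42.9%, but 10.7% and 4.30% of them lay at a protein-coding TSS. Whether base composition bears on the motif shares was not tested. Leaving out 1 MDA-MB-453 library gave 12.9% of gained regions without TWEAK replicate 2, 14.5% without TWEAK replicate 1, and 14.7% and 15% without untreated replicates 1 and 2. These stood against 12.6% to 12.9% of all and 7.97% to 9.02% of lost regions. Without TWEAK replicate 2 the gained share was thus close to that of all regions. With the window shortened to 500 bp the shares fell to 12.6% in gained, 3.58% in lost and 6.72% in all regions.
Repeated sequence held few of the matches. Of 139 matches, overlapping ones counted each, 123 lay in a 20-base stretch found once on chromosomes 1 to 22 and X. Those in RIC1 and nearest CMTM4 were found 1306 and 915 times. At least 1 match with a stretch found once was held by 99 of the 111 regions. Of the 139 matches, 105 lay inside the gained region and the others only in the window around it.

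The spelling found in the largest number of gained regions was GGGACTTTCC, in 10 of them (1.75%, against 0.343% of all regions). The nearest genes were TTLL4, TBL1XR1, ADGRA3, IL6ST, ZNF608, ARHGAP26, TRAF2, FAT3, PLEKHG6 and ITGAM. A peak in at least 1 SKBR3 list was present at 8 of these 10, against 76.4% of all regions with an NF-κB match and 65.0% of all regions. The regions nearest ADGRA3 and FAT3 had no SKBR3 peak. At PLEKHG6 the SKBR3 percentiles overlapped between the groups, with 96.4 and 91.7 untreated and 96.9 and 95.9 with TWEAK. At the ARHGAP26 region (chr5:142857185-142858586, intronic), in a gene for a GTPase-activating protein, SKBR3 fold enrichment was 5.28 and 5.22 untreated and 22.7 and 26.2 with TWEAK. The intronic TBL1XR1 region (chr3:177144415-177145709) had 3.97 and 3.64 untreated and 10.3 and 15.7 with TWEAK. These regions were picked out by a spelling chosen after the data were seen.

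Separate matches numbered 2 or more in 12 gained regions (2.11%, against 1.37% of all regions). By rank the first 8 were nearest TRAF2, PSMB9, ARRDC4, TBL1XR1, ARHGAP15, NUAK1, PGAP6 and PIGZ. PSMB9 encodes a subunit of the interferon-inducible immunoproteasome. Its region (chr6:32860992-32861759, intergenic, 6.8 kb from the TSS) had fold enrichment 3.84 and 3.49 in MDA-MB-453, and 4.66 and 4.76 untreated and 6.67 and 8.29 with TWEAK in SKBR3. The NUAK1 and PGAP6 regions, at promoters, showed no such order in SKBR3, with 4.55 and 6.89 untreated against 5.44 and 4.75 with TWEAK at NUAK1, and 7.50 and 8.91 against 8.49 and 6.78 at PGAP6.

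Other motifs were counted in the same windows. AP-1 (TGACTCA or TGAGTCA, read on both strands) was matched in 143 gained regions (25.1%, Wilson interval 21.7 to 28.8), against 21.9% of lost and 20.4% of all regions. Away from promoters the AP-1 share was 26.3%, against 24.2% of all distal regions. Both an NF-κB and an AP-1 match occurred in 28 gained regions (4.91%, against 2.21% of all). The GGGCGG box of SP and KLF factors, frequent at CpG-rich promoters, was found in 21.1% of gained regions and 32.3% of all. The FOXA motif (TGTTTAC or TATTTAC), the TEAD motif (GGAATGC) and the E-box (CACGTG) were at 36.8%, 13.7% and 10.9%, next to 35.4%, 12.0% and 12.2% of all regions.

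**Figure D3:**
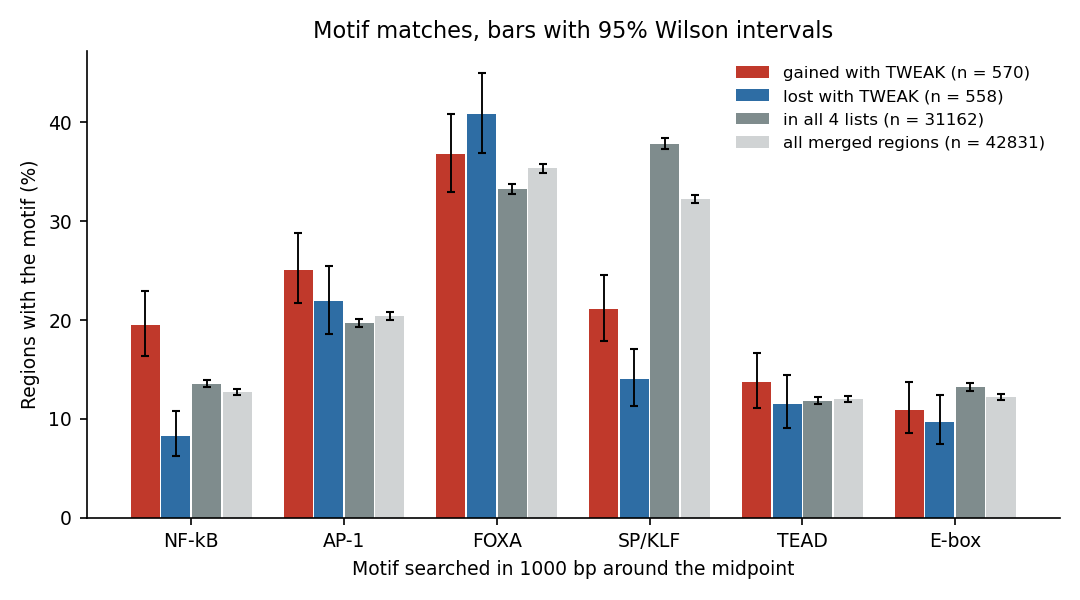
Bars give the share of regions, in percent, with at least 1 match in the 1000 bp around the midpoint for 6 motifs, in gained, lost, always-present and all MDA-MB-453 regions, and the lines are 95% Wilson intervals. The NF-κB bar of the gained regions (19.5%) stands above the other 3. The intervals cover counting error only, and regions from 1 set of libraries depend on each other. Without MDA-MB-453 TWEAK replicate 2 the gained share was 12.9%, against 12.6% of all regions.

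SKBR3 gave a readout that the rule had not used. Of the 570 gained regions, 272 (47.7%, Wilson interval 43.6 to 51.8) had a peak in at least 1 SKBR3 list and 160 (28.1%) in all 4, against 65.0% and 50.1% of all MDA-MB-453 regions. Among lost regions the shares were 43.5% and 24.7%. By list, the share of gained regions with a peak was 34.2% and 36.7% in the untreated lists and 37.2% and 42.3% in the TWEAK lists. The same shares over all regions were 55.5%, 57.9%, 55.8% and 60.2%, also highest in TWEAK replicate 2, the longest list. With 2 libraries against 2, the smallest p an exact two-sided permutation test allows is 0.333, so no test of a difference between the SKBR3 groups is given.

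**Figure D4:**
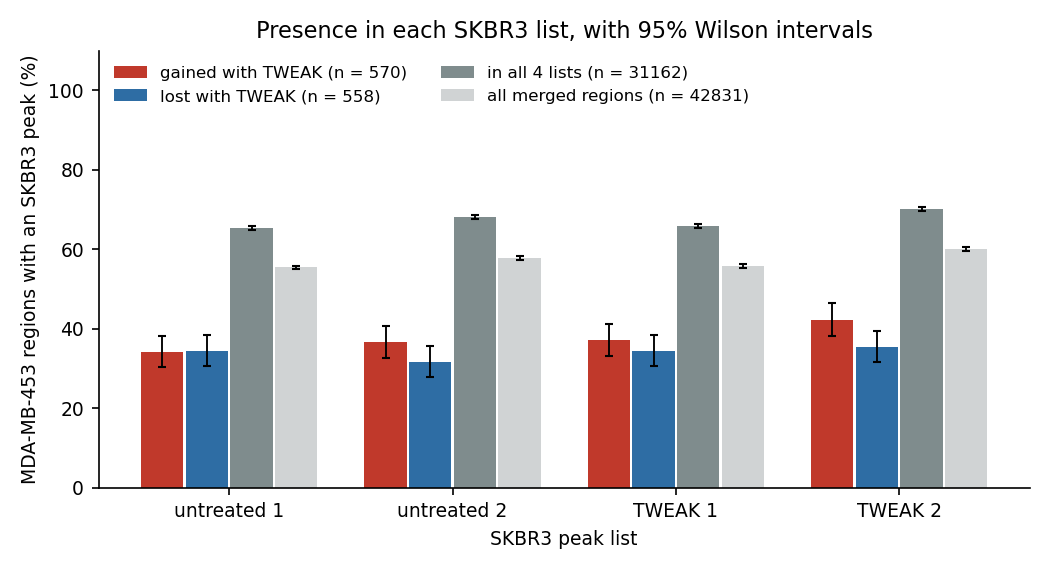
For each SKBR3 list on the horizontal axis, bars give the percentage of MDA-MB-453 regions with an SKBR3 peak, for gained, lost, always-present and all regions, with 95% Wilson intervals. Gained regions run from 34.2% in untreated replicate 1 to 42.3% in TWEAK replicate 2, below all regions in every list.

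The gained pattern itself, both TWEAK lists and neither untreated list, was found in SKBR3 at 14 of the gained regions (2.46%, Wilson interval 1.47 to 4.08), against 1.10% of all MDA-MB-453 regions and 1.61% of lost regions. Leaving out 1 SKBR3 library relaxes the pattern, and it was then found at 20 (3.51%, without TWEAK replicate 2), 24 (4.21%, without untreated replicate 1), 28 (4.91%, without untreated replicate 2) and 39 (6.84%, without TWEAK replicate 1). The shares of all regions were then 1.60%, 1.99%, 2.84% and 4.01%, and those of lost regions 1.97%, 3.41%, 3.41% and 4.84%. Leaving out 1 MDA-MB-453 library gave more gained regions and a smaller share each time. It was 21 of 1173 and 28 of 1525 gained regions without untreated replicates 1 and 2. Without TWEAK replicates 1 and 2 it was 32 of 1893 and 33 of 2198. Among the 14 were regions nearest KYAT3, ARRDC4, CMTM4, MLIP, IL6ST, ISX, SASH1, NFIA, PDLIM5, MCF2L2, C13orf42, NAA16 and AAK1. Most were weak in SKBR3 too. The highest were PDLIM5, a PDZ-LIM protein of the actin cytoskeleton, with SKBR3 fold enrichment 17.8 and 13.3, and IL6ST, the shared gp130 receptor of the interleukin-6 family, with 12.3 and 12.0. In MDA-MB-453 these stood at 3.07 and 2.57, and at 2.93 and 3.27.
The PDLIM5 region (chr4:94455063-94455764) overlapped a TSS and a coding exon. The IL6ST region (chr5:56029685-56030830) was 34.7 kb from its TSS. The region nearest ARRDC4, an arrestin-domain protein, was intergenic (chr15:97997836-97999307) and had 6.68 and 9.67 in SKBR3. The other 10 named had SKBR3 values between 2.52 and 6.18. NFIA encodes a transcription factor, and KYAT3 a kynurenine aminotransferase. The opposite pattern, both untreated lists and neither TWEAK list, was found at 5 gained regions (0.877%, against 0.700% of all), nearest SPTLC2, DEPDC5, TMEM63B, MTMR4 and PLEKHA6. Of these 5, 4 lay within 1 kb of an annotated TSS. Among the 14 it was 2.

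Where all 4 SKBR3 lists had a peak, its rank could be compared between the groups. The rank is that of the whole SKBR3 peak, which can reach beyond the gained region. Joined SKBR3 regions that gained regions overlapped had a median width of 2054 bp, against 688 bp for the gained regions. At 54 of 160 gained regions (33.8%) both SKBR3 TWEAK percentiles stood above both untreated ones, against 17.0% of all regions present in all 4 SKBR3 lists, 23.9% of lost regions and 16.1% of regions in all 4 MDA-MB-453 lists. At 17 (10.6%) both stood below, against 19.1% of all and 13.0% of lost regions. The share above was 37.3% away from promoters (47 of 126, all regions 24.0%) and 20.6% at promoters (7 of 34, all regions 10.9%). Among lost regions it was 24.1% away from promoters and 22.7% at promoters, the latter above the gained share. Percentiles of fold enrichment in place of −log10 q gave 34.4% above and 11.2% below. With any of the 4 SKBR3 libraries left out, the share above was between 40.6% (without TWEAK replicate 2) and 58.8% (without TWEAK replicate 1), and for all regions it was 27.9% and 37.3% with the same library left out. The share below was then 27.5% without TWEAK replicate 2, 23.8% and 21.2% without untreated replicates 2 and 1, and 18.1% without TWEAK replicate 1, against 36.5%, 38.3%, 32.7% and 36.6% of all regions. These 160 include 4 regions that share an SKBR3 region in pairs, nearest ODC1 and nearest RHOV.

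Gained regions with an NF-κB match were more often marked in SKBR3. A peak in at least 1 SKBR3 list was present at 77 of 111 (69.4%) with a match and at 195 of 459 (42.5%) without. Over all regions with a match it was 76.4%, and over all regions 65.0%. Gained regions with a match also had a larger median width than those without (792 against 672 bp) and a higher median GC content (48.2% against 42.1%). Within 1 kb of a TSS lay 23 of the 111 and 76 of the 459. Of the 49 with a match and a peak in all 4 SKBR3 lists, 23 (46.9%) had both TWEAK percentiles above both untreated ones and 3 (6.12%) below, against 18.0% and 19.6% of all regions with a match. Of the 13 lost regions of this kind, 30.8% stood above and 23.1% below. The 49 gained regions had a median SKBR3 fold enrichment of 6.10 and 6.89 untreated and 9.24 and 9.17 with TWEAK. For the 13 lost regions it was 9.93 and 10.4 untreated and 9.94 and 8.23 with TWEAK. Without a match the counts were 31 above (27.9%) and 14 below (12.6%) of 111, against 16.8% and 19% of all. Regions with an AP-1 match were above in 19 of 52 (36.5%) and below in 1, against 25.4% and 12.6% of all regions with the motif and 29.3% and 12.2% of the 41 such lost regions. The difference between regions with and without a match was not tested.
Named examples from the 23 follow. The region nearest IFNGR1, the interferon-γ receptor chain (chr6:137237270-137238195, 17.8 kb from the TSS), had fold enrichment 3.71 and 3.57 in MDA-MB-453. In SKBR3 it had 9.38 and 7.61 untreated and 21.6 and 18.5 with TWEAK. The region nearest KRT80, an epithelial keratin (chr12:52152289-52152815, 39.2 kb), had 19.2 and 23.7 untreated and 29.3 and 25 with TWEAK. Its SKBR3 percentiles were 99.6 and 99.5 untreated and 99.8 and 99.8 with TWEAK, and its match lay just outside the region. At the region nearest RHOV, a small GTPase (chr15:40878614-40879553, 4.38 kb), the values were 19.8 and 23 untreated and 28.4 and 25.3 with TWEAK. TRAF2, PSMB9, ODC1, TBL1XR1 and ARHGAP26, described above, were among them, as was the SDC4 region nearest RBPJL, with 3.17 and 3.12 untreated and 3.65 and 3.51 with TWEAK. IFNGR1, KRT80 and RHOV were picked from the 23 after their values were seen. Of the 14 regions also gained in SKBR3, 6 had an NF-κB match (5.41% of the 111, against 1.45% of all regions with a match), and none of the 5 with the opposite pattern did. Among the 6, the match nearest CMTM4 lay in repeated sequence and the match nearest MCF2L2 lay outside the region.

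**Figure D5:**
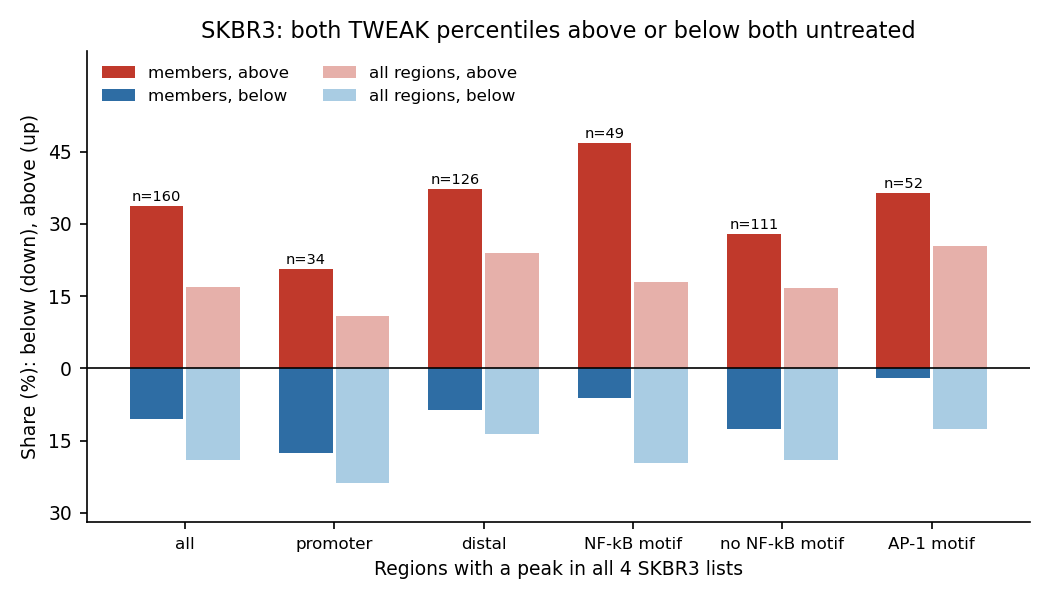
For regions with a peak in all 4 SKBR3 lists, bars above the line give the share, in percent, in which both TWEAK percentiles exceed both untreated ones, and bars below the line the share in which both are lower. Dark bars are gained MDA-MB-453 regions with their number printed, pale bars are all MDA-MB-453 regions of the same kind, and the gained regions with an NF-κB match stand at 46.9% above and 6.12% below.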

How the data were processed

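H3K27ac ChIP-seq peak lists of MDA-MB-453 and SKBR3 cells, untreated or given TWEAK, were analysed, with 2 libraries per group and 8 lists. Reads were trimmed with Trimmomatic, aligned to hg38 with Bowtie2 and called with MACS2 with input subtracted by the authors, and blacklisted regions were removed. Versions and calling options are not given in the sources used here. In each deposited list a peak has an integer score, a ratio (fold enrichment over background), and a p-value and a q-value as −log10, all written by the authors' caller. The authors called peaks in each library separately. The 2 input samples were not used here, and depth is unknown.

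Peaks of the 4 MDA-MB-453 lists that overlapped by 1 bp were joined into regions, and 1 bp of a peak counted as presence. Sequence names and ends were checked against hg38, with 0 peaks outside it. SKBR3 values of a region are those of its highest-ranked overlapping peak. Percentiles are ranks of −log10 q within a list. TSS and genes came from GENCODE release 44. Motifs were searched on both strands, the NF-κB consensus allowing several bases at 5 positions. The study compared signal with DiffBind, which needs reads, and presence was compared in its place. The steps (Python 3.11.15, pandas 2.3.3) were tested on simulated data, in which 200 of 200 planted gained regions were recovered.

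Regions and gene lists were chosen with earlier results of these data known. Regions named are the 10 highest ranked, the 10 highest at protein-coding promoters, those gained or lost in SKBR3, those of list genes, genes nearest to 3 regions, and the first 8 with 2 or more NF-κB matches. The rank is the mean percentile in the TWEAK lists. Some regions that meet these rules are not reported here. Alternatives were stricter thresholds, other overlaps, windows and motifs, and leaving out each library.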

Additional observations from a re-analysis of the deposited data

Results flagged for a closer look

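At 5 of the 570 gained regions the direction in SKBR3 was opposite, with a peak in both SKBR3 untreated lists and in neither TWEAK list. The difference between the lines was not tested. The fold enrichments in the SKBR3 untreated lists were 2.76 and 2.76 at the region in SPTLC2, 3.38 and 3.11 in DEPDC5, 2.89 and 5.68 in TMEM63B, 4.05 and 4.43 in MTMR4, and 2.57 and 2.74 nearest PLEKHA6.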

How the results depend on the processing

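With q under 1e-05 in every MDA-MB-453 list there were 291 gained regions, the promoter share was 25.1%, the share with an SKBR3 peak 62.9% and 5 were also gained in SKBR3. The promoter share was 20.8% with an overlap of at least 50% of the region, 27.4% with a window of 2.5 kb and 10.7% with protein-coding TSS only. The NF-κB share was 12.6% in a 500 bp window, 15.4% in the whole region and 12.3% with a shorter motif, and the AP-1 share was 15.6%, 18.1% and 19.6% (8 bp motif) likewise. With the shorter NF-κB motif the share was 8.22% of all and 7.53% of lost regions. For AP-1 it was 12.5% of all and 13.6% of lost regions in the 500 bp window. With the 8 bp AP-1 motif it was 16.3% and 17%. Over whole regions the NF-κB and AP-1 shares of gained regions fell below those of all regions, which are wider (21.4% for NF-κB and 30.2% for AP-1). With SKBR3 peaks of q under 1e-05 only, 28.2% of gained regions had one. Leaving out 1 library gave 1173 to 2198 gained regions, NF-κB shares of 12.9% to 15%, shares with an SKBR3 peak of 38.4% to 47%, and 20 to 39 regions also gained in SKBR3. The share with SKBR3 TWEAK percentiles above untreated, a comparison whose alternatives were chosen after seeing the data, was then 40.6% to 58.8%. Leaving out a library relaxes the rule by construction. The share inside protein-coding genes moved less than its interval under all 9 alternatives tried. No paired analysis was possible because no result comes from a test. As a description, chosen after seeing the data, the SKBR3 percentile was higher with TWEAK within both replicate numbers at 51.2% of the 160 gained regions (all regions 28.2%) and lower within both at 21.2% (33.8%). Presence in a list depends on a depth that is unknown.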

Other observations

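Genes nearest to 2 gained regions included HGF, TGFBR2 and MYCN, growth factor, receptor and transcription factor genes picked from the 36 such genes after their values were seen. Where an SKBR3 list had a peak at one of them, its fold enrichment was between 2.54 and 3.29. The HGF regions were 323 and 359 kb from the TSS, with fold enrichment between 2.59 and 3.15 in MDA-MB-453. A MYCN region overlapped the MYCN TSS, with 3.10 and 3.39 and no SKBR3 peak, and the other was 48.5 kb away. The TGFBR2 regions, 8.62 and 419 kb away, had 2.55 to 3.56.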
